A study of Mus musculus with 12 samples.

Results

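The genes described here kept near-normal RNA levels when either Lyl1 or Scl was missing and lost most of their RNA when both were missing. The study sequenced 12 libraries of mouse RNA in 4 genotype groups of 3, with every library labelled as a pool of embryos of embryonic day 9.5 (tissue: embryo). The groups are wild type (labelled WT), LYL1 KO (knockout of Lyl1), SCL KO (knockout of Scl, gene symbol Tal1) and LYL1 SCL DKO (both genes knocked out). Below they are called wild type, Lyl1 KO, Scl KO and double KO. The sources used here give no alleles, Cre driver, strain, litters or number of embryos in a pool. Genes were chosen by their group means in CPM, which are read counts scaled to a common library total by the trimmed mean of M-values (TMM). A member had a wild-type mean of 10 CPM or more, a mean between 80% and 125% of wild type in each single KO, and a double KO mean of 40% of wild type or less. Of 15399 genes with enough counts to test, 8247 reached 10 CPM in wild type, and 81 met every criterion. The group means of all 4 genotypes therefore chose the members, and their differences between genotypes are given as a description; the counts of test calls printed further on repeat that choice.

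Scl and Lyl1 are close relatives in the basic helix-loop-helix family of transcription factors and act in blood cells and vessels. Each pairs with a ubiquitous E protein to bind a short E-box sequence, and joins Lmo2, Ldb1 and Gata factors in a larger complex that sits at many blood genes. Scl is known for its need in the first blood cells of the embryo and in megakaryocytes, the cells that shed platelets, and Lyl1 can take over some of its tasks in adult blood stem cells. Comparing single with double loss is the usual genetic way to ask whether related factors cover for each other.

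Total counts lay between 24324685 and 29212443 per library, so that a count of 0 allows a level of up to 3 counts, or 0.0936 to 0.131 CPM. In wild type Tal1 stood at 559, 643 and 513 CPM, and in Lyl1 KO at 619, 542 and 575. In Scl KO it stood at 118, 117 and 93.4 CPM, and in the double KO at 100, 100 and 77.7. Lyl1 stood at 203, 192 and 149 CPM in wild type, 90.4, 87.4 and 85.5 in Lyl1 KO, 210, 198 and 118 in Scl KO and 88.3, 108 and 56.5 in the double KO, so RNA of both targeted genes remained in the libraries named for their loss. Most listed markers of embryonic organs were too low to test. Of 9 heart and muscle genes, 7 had too few counts to test, and Myh6, Nkx2-5 and Myl7 had 0 counts in every library. The list summed to 0.125 to 5.61 CPM in wild type. Of 9 neural genes 7 were too low to test, with Sox1 and Olig2 at 0 counts, and of 9 endoderm genes 7, with Ttr and Foxa2 at 0. The neural list summed to 6.09 to 8.63 CPM in wild type, 18.2 to 27.7 in Scl KO and 25.2 to 86.7 in the double KO. The endoderm list summed to 10.2 to 17.1 CPM in wild type and 2.4 to 3.8 in the double KO. The 24 listed platelet surface genes, by contrast, summed to 39750 to 44530 CPM in wild type. Xist, the female-specific X-linked transcript, was at 1.79 CPM in Lyl1 KO 3, 0.402 in double KO 1 and 0.598 in double KO 2, and at 356 CPM or more in the other 9 libraries. Those 3 libraries held Y-linked RNA, with Ddx3y at 62, 71.1 and 75.1 CPM, and Ddx3y was at 0.116 CPM or less in each of the other 9. The library Scl KO 3 stood apart from the other 2 of its group on the members, as described next.

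As a set, the members carried 5.31% to 6.04% of all counts in the wild-type and Lyl1 KO libraries and 3.2%, 2.15% and 1.55% in double KO 1, 2 and 3. Their summed level was 61500 ± 5820 CPM in wild type (mean ± SD, n = 3), 64160 ± 6341 in Lyl1 KO, 55660 ± 11894 in Scl KO and 19105 ± 8222 in the double KO. Set against each gene's wild-type mean, the median member stood at 104%, 108% and 89.2% in the wild-type libraries and at 112%, 95.1% and 95.6% in Lyl1 KO. It stood at 103%, 96% and 64.9% in Scl KO 1, 2 and 3, and at 39.8%, 28.2% and 21.5% in double KO 1, 2 and 3. The third Scl KO library was thus low for most members: it was the lowest of its group in 79 of 81, against 47.6% of all genes at 10 CPM or more, and under 80% of wild type in 70. Scl KO 1 and 2 were both at 80% or more of wild type in 77 members, and Scl KO 3 was above every double KO library in all 81. Both of these counts largely follow from the rule's limits on the Scl KO and double KO means, and nothing is read from them. Shares over all genes are not given for them or for the 70 members, so these counts describe the members only. Double KO 3, the only double KO library with Xist, had the lowest median. In these bulk libraries, fewer cells of a type and less RNA per cell cannot be told apart.

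**Figure D1:**
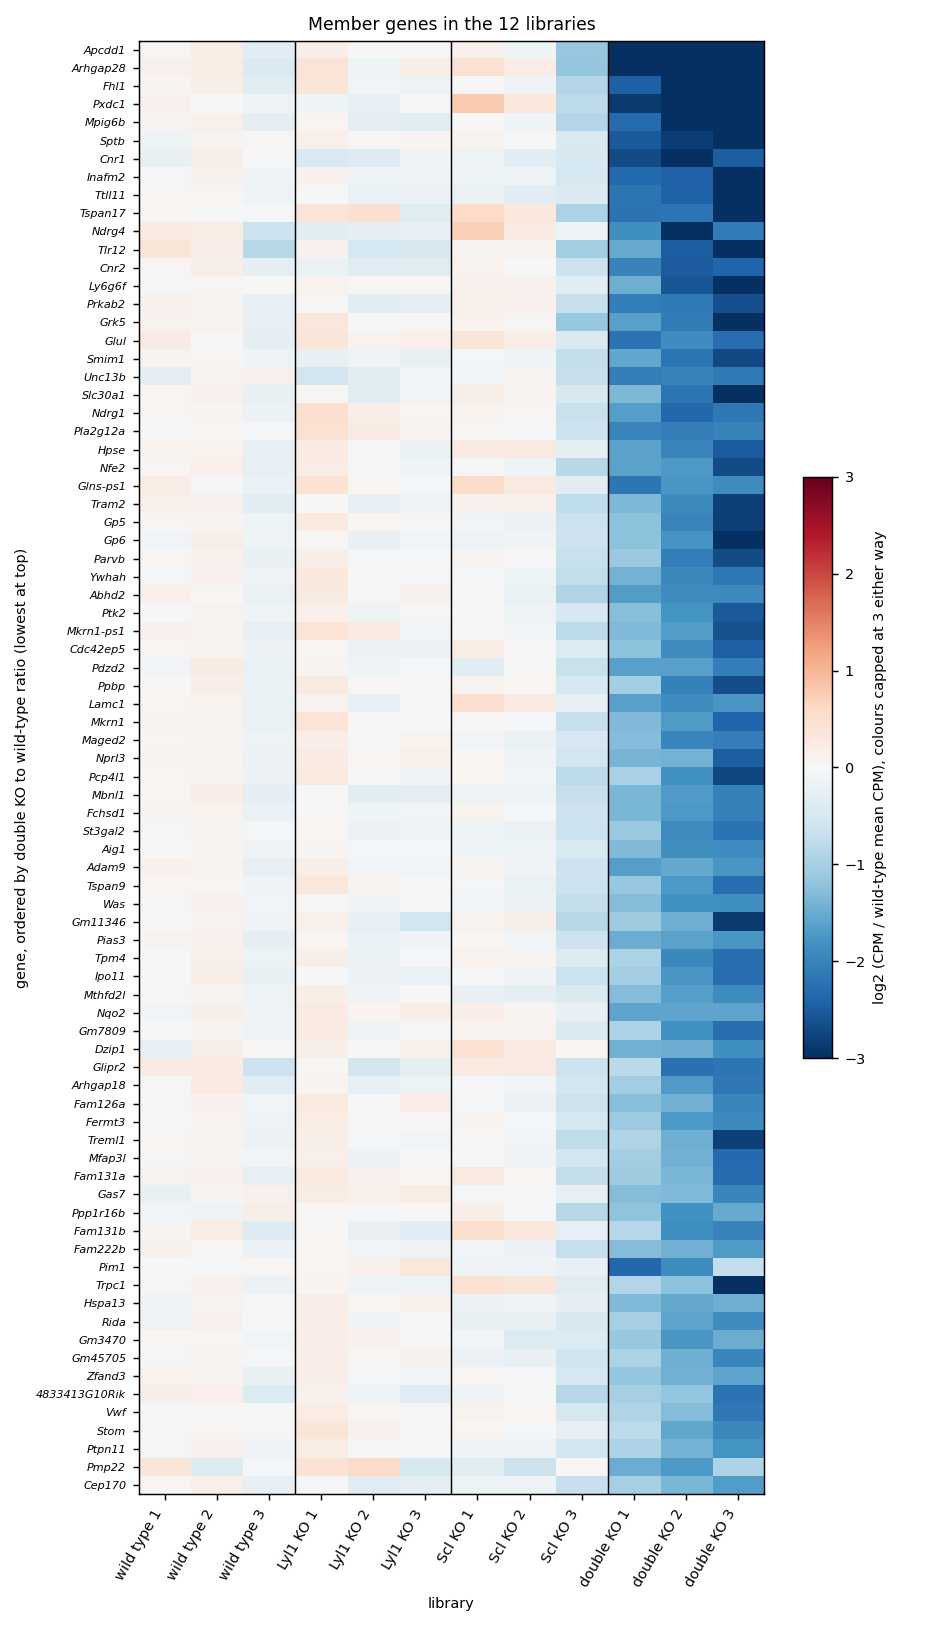
Level of 80 of the 81 members (rows, lowest double KO to wild-type ratio at the top) in the 12 libraries (columns), as log2 of CPM over the wild-type mean, with colours capped at 3 either way. The 3 double KO columns are blue in all 80 rows, and Scl KO 3 is pale blue in most rows where Scl KO 1 and 2 are close to white.

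The double KO libraries also differed from each other across most members. Double KO 1 was the highest of its group in 71 members (42.8% of all genes at 10 CPM or more) and double KO 3 the lowest in 65 (45% of all). The median coefficient of variation of a member was 11.1% in wild type and 9.96% in Lyl1 KO, but 22.2% in Scl KO and 33.9% in the double KO, where all genes at 10 CPM or more had medians of 10.8%, 7.39%, 10.4% and 13.2%. Over the members, the Lyl1 KO mean ran from 80.6% to 121% of wild type (median 101%), the Scl KO mean from 80% to 124% (median 87.7%) and the double KO mean from 4.27% to 39.9% (median 31.3%). The single KO values were not spread evenly around 100%, since 69 of 81 members had a Scl KO mean below wild type and 30 of these were under 85%, while 36 had a Lyl1 KO mean below wild type.

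**Figure D2:**
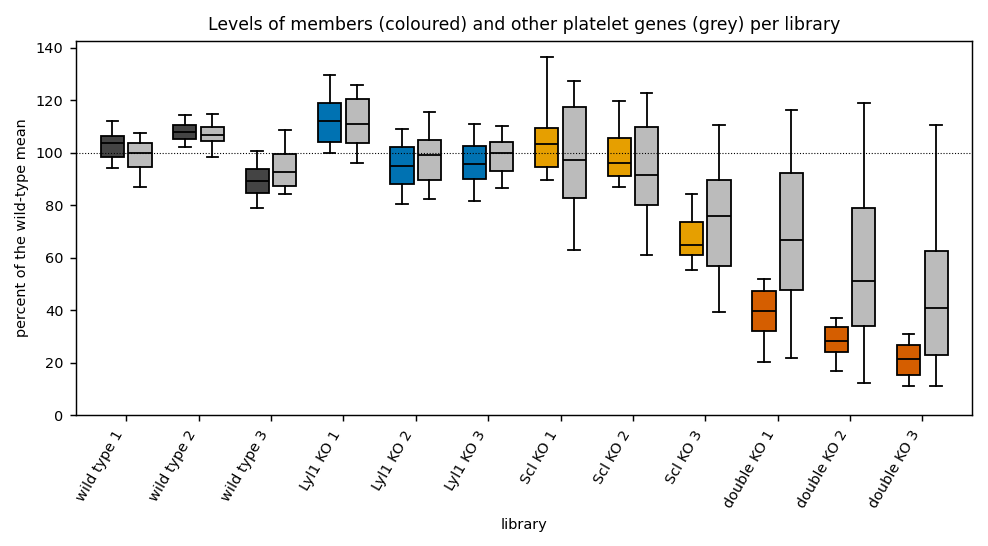
Levels per library as percent of each gene's wild-type mean, for the members (coloured boxes) and for 81 platelet genes that are not members (grey boxes); lines mark medians, boxes the middle quartiles and whiskers the 10th and 90th percentiles. The median member fell to 39.8%, 28.2% and 21.5% in the double KO libraries, and the median of the other platelet genes was 66.6%, 51.1% and 40.7%.

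Because the group means chose the members, the counts of members called repeat that choice and nothing is read from them. The labels do not say whether replicate libraries come from separate litters, and a p-value here covers the spread between these samples only. The edgeR quasi-likelihood test, with a Benjamini-Hochberg adjusted p under 0.05 over all genes, called 81 of 81 lower in the double KO than in wild type (18.1% of all genes tested). It called 81 lower than in Lyl1 KO (17.9%) and 81 lower than in Scl KO (10.8%). No member was called in Lyl1 KO against wild type (0.0325% of all genes lower, 0.039% higher) or in Scl KO against wild type (2.73% lower, 2.29% higher), 0 had an unadjusted p under 0.05, and DESeq2 called 0 in both as well. In the interaction, which asks whether losing Lyl1 had another effect without Scl than with it, 69 members were called lower and 0 higher (5.86% of all genes lower, 3.51% higher). In all 81 members each double KO library lay below each of the other 9 libraries (18.2% of the genes at 10 CPM or more). The median log2 change of the members was -1.68 in the double KO against wild type, 0.02 in Lyl1 KO and -0.19 in Scl KO, and over all genes tested the first of these was 0.04 and the other two were near 0.

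By wild-type level, 11 members were at 1000 CPM or more, 35 at 100 to 1000 CPM and 35 at 10 to 100 CPM. Protein-coding genes made up 74 of the 81, and the other 7 are pseudogenes, an antisense gene and a transcript of unverified type, which are counted and not described. Among those, Mkrn1-ps1 and Glns-ps1 are near-identical to parts of the members Mkrn1 and Glul, so reads could be split between copy and parent. The members were sorted into roles after their values were seen: 17 surface receptors and channels, 6 secreted or matrix proteins, 14 proteins of the cytoskeleton and of adhesion linkage, 9 of signalling, 5 of the nucleus and RNA, 7 of metabolism and 23 others. Genes named below beyond the 20 highest, the 15 with the lowest double KO ratio, list members and threshold neighbours were likewise chosen with their values in view.

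The surface group had the lowest median of the roles in the double KO, 24.3% of wild type, and holds several receptors by which platelets sense a damaged vessel wall. Gp6, the platelet receptor for collagen, had 940, 1127 and 899 CPM in wild type, 1015, 852 and 941 in Lyl1 KO, 893, 901 and 646 in Scl KO, and 422, 292 and 105 in the double KO. Gp5, a subunit of the receptor for von Willebrand factor, had 1435, 1500 and 1295 CPM in wild type, 1726, 1476 and 1445 in Lyl1 KO, 1329, 1242 and 899 in Scl KO, and 602, 360 and 202 in the double KO. For both genes the 3 double KO libraries lay below the other 9 and Scl KO 3 lay below the rest of those 9; double KO means were 27.6% and 27.5% of wild type. Mpig6b, an inhibitory receptor of megakaryocytes and platelets, had 344, 358 and 271 CPM in wild type, 340, 265 and 258 in Lyl1 KO, 322, 299 and 177 in Scl KO, and 65.2, 33.8 and 13.5 in the double KO, a mean of 11.6%. Ly6g6f, an immunoglobulin-family protein of the platelet surface, was the steadiest of these outside the double KO, at 477, 499 and 486 CPM in wild type, 525, 497 and 496 in Lyl1 KO, 535, 535 and 387 in Scl KO, and 175, 82.7 and 47.3 in the double KO (20.9%). Treml1, a receptor stored in platelet granules, had 1300 ± 137 CPM in wild type and 453 ± 257 in the double KO (mean ± SD, n = 3), or 34.8%, with 701 CPM in double KO 1 and 767 in Scl KO 3, so that the lowest single KO library and the highest double KO library were close.

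The start regions of Gp6, Gp5, Mpig6b and Ly6g6f are shown because Scl and Gata factors are known to bind E-box and GATA sequences. They also let the letters behind the motif counts given further on be seen. Each run is 250 bases before to 50 bases after an annotated start, 5′ to 3′ in the gene's direction, from RefSeq on GRCm38.p6. Capitals mark, on either strand, CAGATG, an E-box that Scl binds with E proteins. They also mark AGATAA, the usual letters for a Gata factor. The variant TGATAA is marked in the same way. The windows are chr7:4397695-4397994 for Gp6, chr16:30310732-30311031 for Gp5, chr17:35066135-35066434 for Mpig6b and chr17:35085546-35085845 for Ly6g6f, all on the minus strand.
Gp6: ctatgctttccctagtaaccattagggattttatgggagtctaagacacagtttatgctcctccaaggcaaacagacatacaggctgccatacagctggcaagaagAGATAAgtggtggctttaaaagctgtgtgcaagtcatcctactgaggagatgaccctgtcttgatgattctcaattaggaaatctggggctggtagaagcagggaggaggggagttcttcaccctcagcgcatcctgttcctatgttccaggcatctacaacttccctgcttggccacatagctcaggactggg
Gp5: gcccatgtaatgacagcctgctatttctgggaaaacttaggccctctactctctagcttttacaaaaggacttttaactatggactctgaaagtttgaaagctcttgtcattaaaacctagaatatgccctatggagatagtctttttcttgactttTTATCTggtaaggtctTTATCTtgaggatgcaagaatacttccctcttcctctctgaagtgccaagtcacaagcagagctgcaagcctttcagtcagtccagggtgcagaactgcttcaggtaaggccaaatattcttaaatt
Mpig6b: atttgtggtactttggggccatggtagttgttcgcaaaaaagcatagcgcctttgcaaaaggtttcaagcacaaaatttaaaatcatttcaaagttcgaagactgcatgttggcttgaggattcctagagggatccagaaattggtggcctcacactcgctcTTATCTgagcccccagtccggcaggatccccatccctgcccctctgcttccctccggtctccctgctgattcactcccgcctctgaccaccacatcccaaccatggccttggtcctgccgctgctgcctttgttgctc
Ly6g6f: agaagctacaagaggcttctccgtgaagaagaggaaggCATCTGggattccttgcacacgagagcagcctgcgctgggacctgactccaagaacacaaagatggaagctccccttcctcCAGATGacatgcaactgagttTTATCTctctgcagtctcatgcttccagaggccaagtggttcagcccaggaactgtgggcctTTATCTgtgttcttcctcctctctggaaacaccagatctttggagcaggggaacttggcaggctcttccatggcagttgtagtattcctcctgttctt
In Gp6 the GATA letters start 144 bases before the annotated start, in Gp5 93 and 77 bases before, and in Mpig6b 88 bases before. Ly6g6f has GATA letters 110 and 48 bases before the start and CAGATG or its complement 212 and 131 bases before. Each window shown holds GATA letters, but only 8 of 60 member windows do, so these genes do not stand for the members. The window of Treml1 has CAGATG and no GATA letters. Those of the surface members Cnr1, Tspan9, Tspan17, Tlr12, Mfap3l and Slc30a1 have neither. A match of letters is a description of the window and does not show that a factor binds there.

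Other surface members were lower still or belong to other systems. Apcdd1, a membrane glycoprotein that restrains Wnt signals, had the lowest double KO ratio of all members, with 267, 301 and 203 CPM in wild type, 291, 259 and 265 in Lyl1 KO, 281, 236 and 117 in Scl KO, and 15.2, 9.53 and 8.18 in the double KO. The double KO mean was 4.27% of wild type, a 23.4-fold difference, and the lowest single KO library was still far above the highest double KO library. Both cannabinoid receptors were members. Cnr1 had 36.3, 47.3 and 42.5 CPM in wild type, 30.6, 32 and 39.2 in Lyl1 KO, 37.7, 33.9 and 30.2 in Scl KO, and 6.56, 4.88 and 7.58 in the double KO (15.1%). Cnr2 had 73.4, 80.4 and 58.5 CPM in wild type, 61.4, 55.2 and 55.3 in Lyl1 KO, 76.5, 70.2 and 45.1 in Scl KO, and 17.5, 12.6 and 13.6 in the double KO (20.6%). Each stood within 1 percentage point of the lower limit for Lyl1 KO, at 80.7% and 80.9% of wild type. Cnr1 was as close to the lower limit for Scl KO, at 80.7%, and Cnr2 was at 90.3% in Scl KO. The tetraspanins Tspan9 and Tspan17, membrane organisers, had 32.3% and 18.6%, and Tspan17 varied widely in the single KO groups, from 37.6 to 67.6 CPM in Lyl1 KO and from 25.2 to 73 CPM in Scl KO. Tlr12, a Toll-like receptor, had 60, 52.9 and 25.9 CPM in wild type, against 16.2, 8.33 and 2.9 in the double KO (19.8%); wild type 3 was near Scl KO 3, which had 22.3 CPM. Mfap3l was at 35.1%, Smim1, which carries the Vel blood group, at 23.7%, and the zinc exporter Slc30a1 at 24.3%.

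Among secreted proteins were the most abundant members. Ppbp, which encodes platelet basic protein, the precursor of a neutrophil-attracting chemokine, had 17527, 19875 and 15677 CPM in wild type, 21282, 18072 and 18162 in Lyl1 KO, 18940, 18327 and 12764 in Scl KO, and 8690, 4324 and 2782 in the double KO. Its double KO mean was 29.8% of wild type, and per kilobase of exon it ranked first among the members with 16337 RPKM in wild type (CPM per kilobase), against 1372 for Tpm4, the next. Vwf, the adhesive protein that tethers platelets to collagen, had 5995, 6424 and 6239 CPM in wild type, 7298, 6437 and 6112 in Lyl1 KO, 6732, 6466 and 4398 in Scl KO, and 3351, 2542 and 1403 in the double KO. At 39.1% it passed the double KO limit narrowly, and double KO 1 was at 53.9% of the wild-type mean. Hpse, the heparan sulfate-cleaving enzyme heparanase, had 655, 659 and 508 CPM in wild type, 717, 727 and 498 in Scl KO, and 199, 153 and 107 in the double KO (25.2%). Hpse and Lamc1, a laminin chain at 29.8%, are among the 12 members whose Scl KO mean was above wild type, at 107% and 115%.

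**Figure D3:**
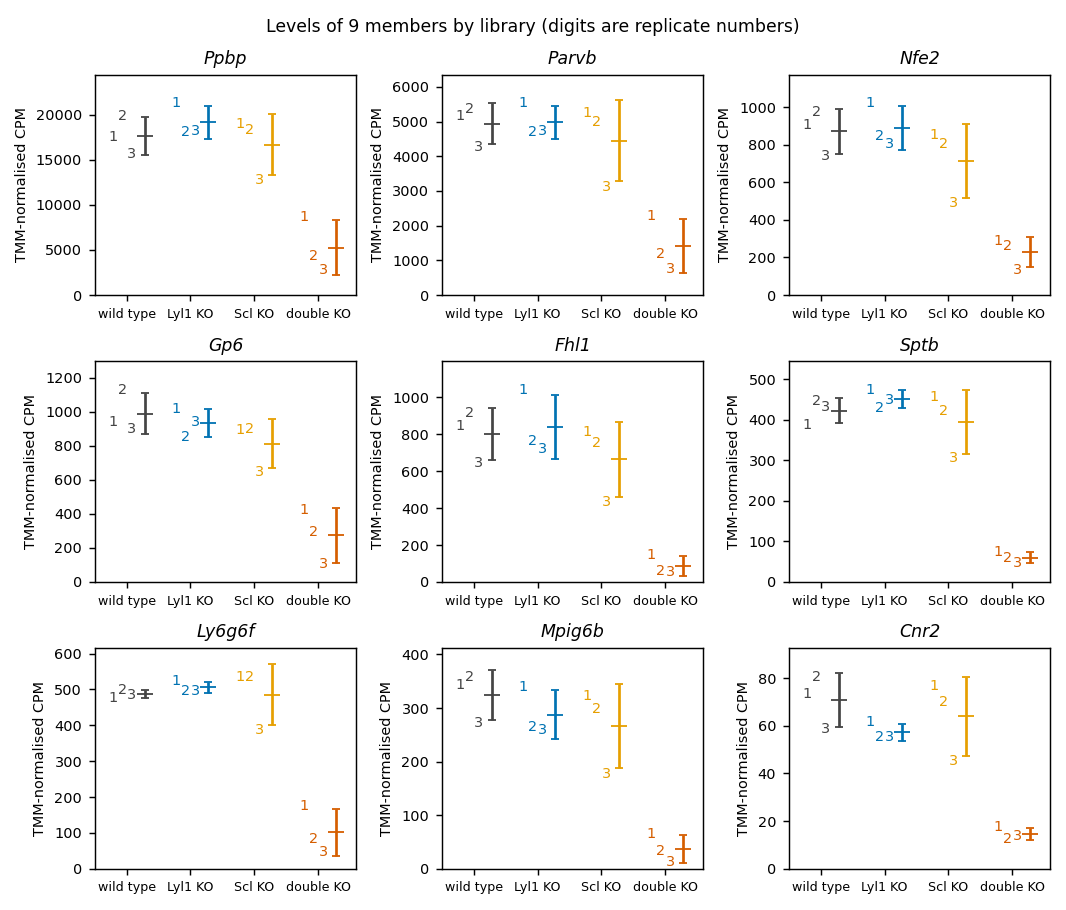
Level in CPM of 9 members in each library (digits are replicate numbers, bars the group mean ± SD, n = 3, linear axes from 0). In all 9 the double KO libraries lie below the other 9 libraries, and Scl KO 3 is the lowest Scl KO library.

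The cytoskeletal group includes the machinery that links integrins, the main adhesion receptors of platelets, to actin. Parvb, beta-parvin, which binds integrin-linked kinase, had 5168, 5367 and 4257 CPM in wild type, 5525, 4701 and 4713 in Lyl1 KO, 5244, 4981 and 3104 in Scl KO, and 2274, 1179 and 762 in the double KO (28.5%). Fermt3, kindlin-3, an integrin activator of blood cells, had 3417, 3613 and 3106 CPM in wild type, 3917, 3477 and 3342 in Lyl1 KO, 3548, 3232 and 2329 in Scl KO, and 1591, 1031 and 899 in the double KO (34.7%). In both, as in most members, double KO 1 was the highest and double KO 3 the lowest of the double KO libraries. Tpm4, a tropomyosin that coats actin filaments in platelets, was at 3023 ± 312 CPM in wild type and 994 ± 498 in the double KO (32.9%). Fhl1, a LIM-domain protein on the X chromosome, had 843, 915 and 647 CPM in wild type, 1040, 763 and 721 in Lyl1 KO, 812, 751 and 433 in Scl KO, and 147, 58.7 and 52.4 in the double KO (10.7%). The library with high Xist, double KO 3, was the lowest for Fhl1, and the double KO libraries with Y-linked RNA were also far below the rest. Was and Maged2, the other X-linked members, were at 32.3% and 30.2%.

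Sptb, the beta-spectrin best known from the red cell membrane skeleton, had 388, 447 and 432 CPM in wild type, 473, 430 and 449 in Lyl1 KO, 456, 423 and 306 in Scl KO, and 73.3, 60.1 and 46.8 in the double KO (14.2%). It was the only member in the list of 29 red cell genes. Of 20 red cell genes tested, 11 were called lower and 1 higher in the double KO than in wild type (18.1% and 16.4% of all genes tested). The median of these 20 was 35.4% of wild type, and 14 of them reached 10 CPM in wild type. The median over all genes at 10 CPM or more was 99%, so the 2 medians rest on different limits of level. Of the 8 at 10 CPM or more that met the double KO limit, 7 had a Scl KO mean under 80%. A pair of GTPase-activating proteins were members at very different levels: Arhgap18 at 744 CPM in wild type (33.9% in the double KO) and Arhgap28 at 31.9 CPM. Arhgap28 had 34.8, 37.2 and 23.8 CPM in wild type, 41.6, 29.3 and 36.1 in Lyl1 KO, 43.6, 37.3 and 14.2 in Scl KO, and 2.85, 1.33 and 1.72 in the double KO (6.15%), the second lowest ratio of all members. Ttll11, which adds glutamate chains to tubulin, was at 17.6%, and the adhesion kinase Ptk2 at 29.1%.

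The start regions of Fhl1 and Arhgap28, the members with the lowest double KO ratios after Apcdd1, are shown as a contrast in the same letters, at chrX:56779433-56779732 on the plus strand and chr17:68004059-68004358 on the minus strand (RefSeq, GRCm38.p6, marked as above). The Fhl1 window is at an internal start, downstream of the gene's 5′ end in the count table.
Fhl1: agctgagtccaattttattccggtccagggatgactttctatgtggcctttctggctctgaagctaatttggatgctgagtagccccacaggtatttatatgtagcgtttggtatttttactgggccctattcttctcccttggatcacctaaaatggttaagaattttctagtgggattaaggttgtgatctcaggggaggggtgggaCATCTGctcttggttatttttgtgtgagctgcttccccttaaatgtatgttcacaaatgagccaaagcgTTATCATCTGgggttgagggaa
Arhgap28: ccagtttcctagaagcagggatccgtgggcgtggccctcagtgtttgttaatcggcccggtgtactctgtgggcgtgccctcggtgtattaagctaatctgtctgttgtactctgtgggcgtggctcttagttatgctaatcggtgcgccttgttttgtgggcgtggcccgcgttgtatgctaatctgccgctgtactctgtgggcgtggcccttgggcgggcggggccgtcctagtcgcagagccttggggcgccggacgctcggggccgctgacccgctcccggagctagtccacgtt
Fhl1 has CAGATG on the other strand 41 bases before the start and again 33 bases after it, where it overlaps TGATAA on the other strand, which begins 29 bases after the start. Arhgap28 has neither sequence in this window, which says only that these letters are not there.

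In the signalling group, Ptpn11, the phosphatase SHP2, had 2054, 2266 and 1948 CPM in wild type, 2432, 2058 and 2016 in Lyl1 KO, 1937, 1866 and 1408 in Scl KO, and 1095, 777 and 607 in the double KO (39.6%), just inside the limit. Ywhah, the eta form of the phosphoserine-binding adaptor family, had 1103, 1249 and 1059 CPM in wild type, against 425, 296 and 256 in the double KO (28.6%). Prkab2, a regulatory subunit of AMP-activated kinase, had 150, 146 and 116 CPM in wild type, 140, 110 and 112 in Lyl1 KO, 154, 151 and 85 in Scl KO, and 32.6, 31.7 and 22.2 in the double KO (21%). Its Scl KO 3 library was below every wild-type library and above every double KO library. Ndrg4 was at 13.5 CPM in wild type, near the lower limit of level, and at 19.6% in the double KO. Pim1, a survival kinase, differed from most members, with 61.2, 86.6 and 190 CPM in double KO 1, 2 and 3, against 312, 301 and 324 in wild type, so its highest double KO library was the third.

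Nfe2, the p45 basic leucine zipper factor needed for platelet release, had 906, 973 and 739 CPM in wild type, 1021, 845 and 803 in Lyl1 KO, 853, 804 and 488 in Scl KO, and 286, 263 and 135 in the double KO (26.1%). Of 16 listed megakaryocyte factors it was the only member. Of those 16, all tested, 8 were called lower and 2 higher in the double KO than in wild type (18.1% and 16.4% of all genes tested). Their median was 75.9% of wild type. Mbnl1, a splicing regulator, had 1532, 1717 and 1229 CPM in wild type, 1512, 1201 and 1247 in Lyl1 KO, 1336, 1335 and 920 in Scl KO, and 579, 458 and 366 in the double KO (31.3%). Its Scl KO mean of 80.2% sat at the edge of the range. Mkrn1, a RING-finger ubiquitin ligase, was at 30%. Inafm2 had 690, 768 and 656 CPM in wild type, against 140, 131 and 83.7 in the double KO (16.8%), and Pxdc1 at 51.3, 46.5 and 42.9 in wild type, 80.5, 58.6 and 27.2 in Scl KO and 6.43, 5.81 and 3.31 in the double KO (11.1%). Pxdc1 had Scl KO libraries both above and below every wild-type library, and its Scl KO mean of 118% is an average of these.

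Close relatives of several members were looked up after the members were known, and their differences from the members were not tested. Some had double KO levels not far from their member: Mbnl2 was at 42.1% beside Mbnl1 at 31.3%, and Treml2 at 42.3% beside Treml1 at 34.8%. Tpm2, with 13.8 CPM in wild type, was at 38.1% beside Tpm4 at 32.9%, but at 45% in Lyl1 KO and 150% in Scl KO. The more abundant Tpm1 and Tpm3 were higher in the double KO, at 75% and 60.7%. Fermt2, with only 3.2 CPM in wild type, was at 16.6% beside Fermt3 at 34.7%. Others were further above their member. Sptan1 and Sptbn1, the spectrins of most cells, were at 95.6% and 102% of wild type in the double KO beside 14.2% for Sptb. The 6 relatives of Ywhah in its family ranged from 51.3% to 132%. Ptk2b was at 170% beside Ptk2 at 29.1%, and Ptpn6, which encodes SHP1, was at 231% beside Ptpn11 at 39.6%. Nfe2l1 and Nfe2l2 were at 95.3% and 88.3% beside Nfe2, and Fhl3 was at 64.3% beside Fhl1. The tetraspanins went both ways, with Tspan13 at 226% and Tspan2 at 2.64% in the double KO, the latter at 30.3% already in Scl KO. Within the receptor for von Willebrand factor, Gp5 was a member, Gp1bb had a like double KO value of 29.3% but a Lyl1 KO mean of 127%, Gp9 had 36.4% with a Scl KO mean of 77.7%, and Gp1ba had 55.1%.

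Most genes that were this low in the double KO did not have the members' single KO pattern. Of the 569 genes at 10 CPM or more with a double KO mean of 40% of wild type or less, 449 had a Scl KO mean under 80% and 14 had one over 125%. The other 106 included 16 with a Lyl1 KO mean under 80% and 9 with one over 125%, which left the 81 members, 14.2% of the 569. Of the 5762 genes whose means were within range in both single KO groups, the members were 1.41%. The 4 platelet lists (surface, granule, cytoskeleton and signalling), chosen with earlier results known, hold 92 genes, all tested. Of these, 62 were called lower and 3 higher in the double KO than in wild type (18.1% and 16.4% of all genes tested), and 9 were members: Gp5, Gp6, Mpig6b, Treml1, Ppbp, Vwf, Fermt3, Tpm4 and Parvb. Another 20 met the double KO limit with a Scl KO mean under 80%, among them Thbs1 (29.3% in Scl KO, 2.06% in the double KO) and Tubb1 (26.4% and 3.17%). Several abundant platelet genes outside the rule stood above its double KO limit, with Itgb3 at 52.6%, Itga2b at 50.6% and Pf4 at 51.2%. The macrophage, endothelial, mast cell, neutrophil, lymphoid and stem cell lists held no member. Only 15, 6, 4, 10, 1 and 5 of their genes reached 10 CPM in wild type. With 81 members among all 8247 genes at that level, nothing is read from their absence in such short lists. Of the 19 macrophage genes, all tested, 5 were called lower in the double KO than in wild type (18.1% of all genes tested). The 19 genes summed to 5684 to 9835 CPM in wild type, 6899 to 10710 in Lyl1 KO, 4919 to 7097 in Scl KO and 4409 to 5603 in the double KO. No macrophage gene was at 0 in any group, and Cd163 and Timd4 were the lowest in the double KO, at 0.187 and 0.48 CPM. Mast cell genes (9 of 12 tested) summed to 106 to 234 CPM in wild type, 99.6 to 155 in Lyl1 KO, 35.8 to 56.2 in Scl KO and 37.5 to 62.7 in the double KO, with Tpsab1 at 0 counts. Mesenchyme genes (6 of 9 tested) summed to 131 to 136 CPM in wild type, 10.5 to 73 in Lyl1 KO, 28.7 to 326 in Scl KO and 16.9 to 39 in the double KO, and neural genes to 6.09 to 8.63, 3.77 to 11, 18.2 to 27.7 and 25.2 to 86.7 CPM. The part of these cell types in the members' levels was not tested.

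**Figure D4:**
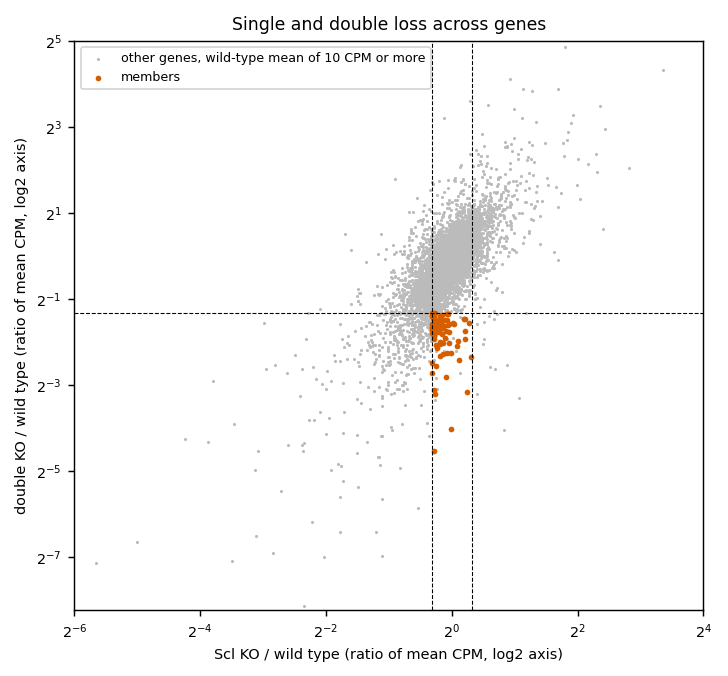
Double KO over wild type against Scl KO over wild type (ratios of mean CPM, both axes log2) for genes with a wild-type mean of 10 CPM or more; dashed lines are the limits of the rule and members are orange. The members fill the box below 40% and between 80% and 125%, more densely toward its left edge, where Scl KO is lower.

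Because most listed platelet genes were called lower in the double KO, the members were also read relative to the median of the 81 platelet genes that are not members in the same library, an alternative added after the data were seen. That median was 66.6%, 51.1% and 40.7% of wild type in double KO 1, 2 and 3 and 75.9% in Scl KO 3. The rule's limit of 40% for a member's double KO mean lies below each of these 3 double KO medians, so member levels under 100% on this scale follow largely from the choice of members, and the values are a description. In the double KO all 81 members were below 100% of wild type, with a median of 58.1% and a range from 8.01% to 80.1%. A total of 14 stood at 40% or less, led by Apcdd1 (8.01%), Arhgap28 (11.6%), Fhl1 (19.3%), Mpig6b (20.3%), Pxdc1 (20.7%) and Sptb (26.9%). The 3 double KO libraries lay below the other 9 in 70 members on this scale (3.7% of all genes at 10 CPM or more), from which nothing is read because the same libraries chose the members. Treml1, Pim1 and Pmp22 were among the 11 where they did not. The most abundant members moved closer to the other platelet genes, with Ppbp at 53.4% and Vwf at 71.7%.

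A reading in libraries that the choice did not use was possible by replicate number. The rule was applied to 8 libraries, leaving out the 4 of a replicate number, and the genes so chosen were then read in those 4, each KO library against the wild-type library of its number. With number 1 left out, 76 genes were chosen, their median in double KO 1 was 46.9% of wild type 1, and 25 were at 40% or less (7.88% of all genes at 10 CPM or more). With number 2 left out, 76 were chosen, the median was 25.8% and 73 were at 40% or less (8.18% of all). With number 3 left out, 85 were chosen, the median was 24.2% and 78 were at 40% or less (8.17% of all). The double KO library was the lowest of the 4 in 76 of 76, 76 of 76 and 84 of 85 genes, against 38.2%, 40.8% and 43.4% of all genes. The genes of a set were read in the same 4 libraries and are not repeats of a result. Platelet genes that are not members also had medians of 66.6%, 51.1% and 40.7% of the wild-type mean in double KO 1, 2 and 3. How far these counts follow from that wider drop was not tested. Single KO values were within the rule's range in Lyl1 KO for 60 of 76, 51 of 76 and 76 of 85 genes. These shares (78.9%, 67.1% and 89.4%) were near those of all genes (77.7%, 68.7% and 90.8%), so nothing is read from them. In Scl KO 61, 55 and 18 genes were within range (80.3%, 72.4% and 21.2%, against 67.1%, 70.5% and 69.8% of all genes). In the third set the median in Scl KO 3 was 71.8% of wild type 3 and 67 of 85 genes were under 80%, beside medians of 107% and 85.3% in the first and second. All criteria were met again by 14 of 76, 39 of 76 and 13 of 85 genes, and by 0.775%, 1.14% and 0.759% of all genes.

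**Figure D5:**
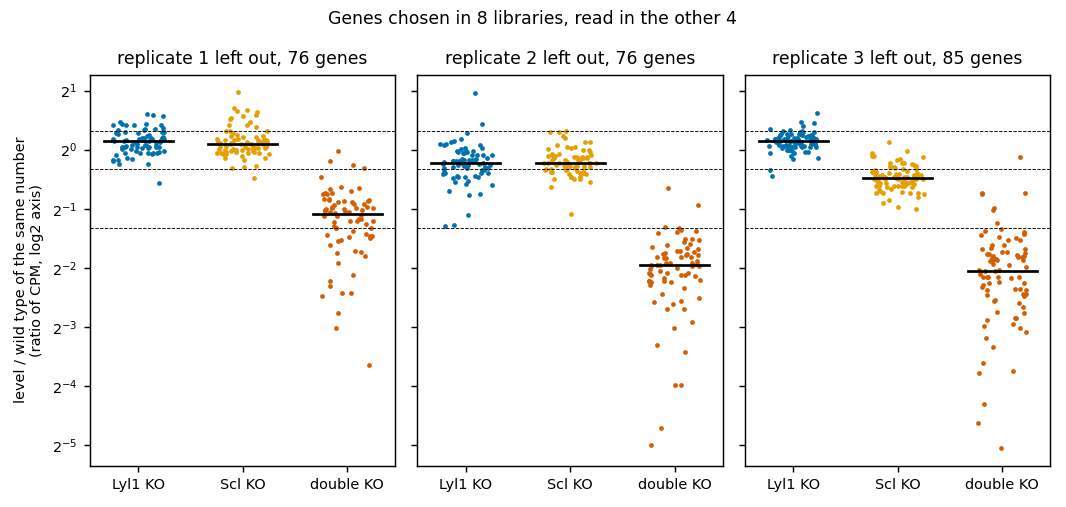
Genes chosen in 8 libraries and read in the 4 that were left out, as the ratio of each KO library to the wild-type library of the same number (log2 axis); points are genes, thick lines medians and dashed lines the limits of the rule. Double KO values lie lowest in each panel, at medians of 46.9%, 25.8% and 24.2%, and the Scl KO points of the third panel are mostly under the 80% line.

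Membership was narrow at its edges. Just inside the double KO limit were Cep170 (39.9%), Pmp22 (39.6%) and Ptpn11 (39.6%), and just outside were Kif5b (40.01%), Actn1 (40.02%) and Armcx6 (40.1%). At the lower Scl KO limit Abhd2 (80.01%), Mbnl1 (80.2%) and Ttll11 (80.2%) were in, and Samd14 (79.9%), Stxbp3-ps (79.7%) and Cald1 (79.5%) were out. At its upper limit Ndrg4 (124%), Dzip1 (121%) and Pxdc1 (118%) were in, and Serpinb2 (131%), Cda (142%) and Spry1 (158%) were out. For Lyl1 KO the lowest members were Unc13b (80.7%), Cnr1 (80.7%) and Cnr2 (80.9%), next to Dennd2d (79.5%), Abcb4 (78.1%) and Sec14l5 (77.2%) outside. The highest were Pla2g12a (121%), Ndrg1 (119%) and Pmp22 (119%), next to Palld (125%), Gp1bb (127%) and Inka1 (127%) outside. In level, Fam131b was a member at 12.6 CPM, and Rasd1 at 8.52 CPM and Ly6g6c at 8.4 CPM were not. Leaving out each of the 12 libraries in turn kept 20 members every time, among them Ppbp, Parvb, Fermt3, Tpm4, Hpse, Inafm2, Ly6g6f, Prkab2, Ptk2 and Sptb, and 7 were kept in 6 runs or fewer. The number of members was 50 without Scl KO 1, 137 without Scl KO 3 (71 of the 81 among them) and 124 without double KO 1 (78 among them).

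The members lay on every autosome and on X, with 9 on chromosome 5 and 7 each on 4 and 17. None was within 10 Mb of Lyl1, the nearest being Ndrg4 at 10.99 Mb. A total of 10 neighbouring pairs were within 1 Mb. The closest were Mpig6b and Ly6g6f, 18.6 kb apart on chromosome 17 (35062693 to 35066184 and 35080480 to 35085610, GRCm38). The genes between them, Ly6g6c and Ly6g6d, were also low in the double KO, at 3.55% and 10.7% of wild type, and missed the rule, Ly6g6c by level (8.4 CPM) and Ly6g6d by a Lyl1 KO mean of 69% and a Scl KO mean of 132%. Ly6g6c overlaps Mpig6b by position, and its value is uncertain for that reason. The nearest genes beyond the pair above 100 CPM in wild type had higher values, with Clic1 at 120% and Abhd16a at 58.6%. Ppbp lies beside Pf4 on chromosome 5, and Pf4 was at 51.2% beside 29.8% for Ppbp.

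RefSeq start regions were found for 60 members and for 6434 genes at 10 CPM or more in all, 1 window of 300 bases a gene, and 21 members had none in the table used. CAGATG on either strand was in 16.7% of the members' windows (10 of 60) and in 10.2% of all windows. AGATAA or TGATAA was in 13.3% (8 of 60) and 9.23%. The general E-box CANNTG, which includes CAGATG and CAGCTG, was in 58.3% and 60.7%, and CAGCTG in 20% and 13.8%. GGAAGT, an ETS-type sequence, was in 21.7% and 31.3%, TGTGGT, a Runx-type sequence, in 13.3% and 11.9%, and TGAGTCA, the core shared by NF-E2 and AP-1, in 1.67% and 3.22%. Both a GATA sequence and CAGATG were found in 2 members, Ly6g6f and Fhl1, and in 66 of all windows. Median GC content was 62.3% in the members' windows and 61.7% in all. These shares describe windows near starts only, with no test, and the members with a GATA or CAGATG match also include Ppbp, Parvb, Treml1, Cnr2 and Smim1.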

How the data were processed

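The deposited data are 1 table of counts, the number of reads per gene that the authors left unnormalised, with 12 libraries as columns. Of its 49671 genes, 26757 had a count in any library. The submitters' processing notes name STAR 2.5.2b, the build GRCm38, featureCounts (Subread 1.5.2) and limma. Counting was on the reverse strand with Ensembl 87 models, per the file headers, and reads with several mapping places were not switched on, so near-identical genes can lose or share reads. Symbols were found for 49326 Ensembl identifiers, and 345 had none. RPKM (CPM per kilobase of exon) used the deposited gene lengths. Columns with no sample: 0.

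The analysis ran in R 4.3.3. After edgeR 4.0.16's filterByExpr by group (minimum count 10, minimum total 15) and TMM scaling, a robust quasi-likelihood model with 4 group means was fitted once to the 12 libraries, and contrasts were adjusted by Benjamini-Hochberg over all 15399 genes. Group and replicate number came from the labels. The code was checked on simulated counts. Floors of 3 counts cover counting error only.

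The members, gene lists, roles and families were chosen with earlier results of these data known. Genes were named by a rule: both targeted genes, the 20 highest members, the 15 with the lowest double KO ratio, members in a list or within 10 Mb of either targeted gene, and 3 genes on each side of each threshold; predicted genes and pseudogenes were not described. Other names were added with values in view. Some genes that this rule names are left out of the text and the heat map. Alternatives were DESeq2 1.42.0 (size factors, Wald test), limma 3.58.1 (voom), other filters, scalings, summaries and limits of the rule, a replicate block and left-out libraries.

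Replicate numbers were checked for pairing by correlating the deviations of same-numbered libraries from their group means, on log2 (CPM + 0.5). All 3 correlations were above 0.1 for wild type with Scl KO (0.116, 0.225 and 0.411). The same held for Scl KO with the double KO (0.297, 0.182 and 0.523), and for no other pair of groups. The labels do not say what libraries of the same number share, and these values do not establish pairing. The main fit used no replicate block, which is an alternative setting only. Promoter windows came from the RefSeq table for GRCm38.p6, 250 bases before to 50 after a start; where a gene had several starts, the one nearest its 5′ end in the count table was used.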

Additional observations from a re-analysis of the deposited data

Results flagged for a closer look

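The interaction of edgeR's fit, the effect of losing Lyl1 without Scl minus its effect with Scl, was called for 69 of the 81 members, each of them lower (5.86% of all genes tested). The members were chosen for this pattern in the same libraries, so the count repeats the choice and shows nothing beyond it. The interaction's median log2 value over the members was -1.58, with a range from -4.35 to -0.79, and 0.04 over all genes tested. The count was 45 without Lyl1 KO 1.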

How the results depend on the processing

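The rule's count of 81 members depended most on its own limits. A narrower range for the single KO means gave 12 genes. Its lower limit was 0.9 of wild type and its upper limit was lowered to match. A range from 0.67 to 1.5 gave 218. With the double KO limit at 0.3 it gave 37, and at 0.5 it gave 187. Leaving out 1 library at a time gave 50 to 137 genes, with 50 lacking Scl KO 1, 137 lacking Scl KO 3 and 124 lacking double KO 1. Under 2 settings added after the data were seen, it gave 17 genes (10 of the 81) relative to the other platelet genes and 198 (73 of the 81) in the 9 libraries with Xist. Other settings stayed within 1.5 times, but the genes differed: DESeq2 size factors gave 83 (75 shared), group medians 119 (60 shared), and scaling to library totals alone 55 (34 shared). That scaling moved the median log2 double KO to wild type ratio over the 8247 genes at 10 CPM or more from -0.02 to 0.40. The same scaling moved the median member to 41% in the double KO and 94.1% in Scl KO. No member's direction in the double KO changed among the 33 recomputed. Nothing is read from that, because the members were chosen for a low double KO mean.

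The members called in the interaction numbered 45 to 78 when 1 library was left out, 57 without a filter on low counts, 76 with DESeq2, 68 with limma-voom and 77 with the replicate block. With the replicate block 81 were called lower in the double KO against each other group and 0 in either single KO against wild type. Over all genes, in both directions, the block called 5970 in the double KO against wild type, 6043 against Lyl1 KO and 3722 against Scl KO (5312, 5422 and 2947 without it). Calls over all genes in Scl KO against wild type rose from 774 to 1226 with that block (1329 with DESeq2), interaction calls from 1444 to 2100 (2261 with DESeq2), and Lyl1 KO calls from 11 to 103 with DESeq2. Because the labels do not say what libraries of the same number share, the block says nothing of pairing. Of 264 recomputed single-member values, 252 moved by less than the spread between replicates, 12 by more and 0 changed sign. The members were chosen for a low double KO mean, so the lack of sign changes follows largely from that choice. Leaving out 1 of 3 libraries cannot move a group's mean by as much as its SD. Values recomputed in that way could only count as less, and nothing is read from these counts. With 3 libraries a group, and Scl KO 3 and double KO 1 far from their groups, membership of genes near a limit is not firm.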
